A study of Homo sapiens with 6 samples.

Results

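The genes described here are 60 genes of mitosis: the cyclins, kinases and phosphatases that drive entry into it, the checkpoint and degradation machinery that ends it, the motors and spindle proteins that move chromosomes, centromere and kinetochore genes, condensins, and the transcription factors FOXM1 and MYBL2. They were chosen by name with earlier results of these data known, so counts of members describe the set and are no independent test of it. By gene ID, 60 of 60 were matched to a probe set, among 23931 named genes measured. The study used Huh7, an established human hepatocellular carcinoma line, stably transfected either with pRcCMVi.hIR-A(GFP), which encodes insulin receptor isoform A (IR-A) and GFP, or with the empty vector. All cells in both groups had passed selection with G418 and sorting for fluorescence, and both were injected under the skin of nude mice. Whether the transfected cells were 1 clone or a mixed population is not given in the sources used here, and the name of the plasmid points to a CMV promoter. Each group holds 3 tumours with 1 Affymetrix array each, and the labels do not say which animal or culture a tumour came from, so the p-values rest on the spread among these 6 samples, which may be of technical origin. The number of arrays limits the precision.

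Mitosis begins when CDK1, bound to its B-type cyclins, is freed from inhibition by the CDC25 phosphatases, and it ends when the anaphase-promoting complex (APC/C), a ubiquitin ligase, has the cyclins and securin destroyed. Most of these genes are transcribed only in late S phase, G2 and mitosis, so their RNA in a tumour is widely read as a measure of how many cells are cycling. Their promoters are shut in resting cells by the DREAM complex and opened in G2 by its MuvB core with B-MYB and FOXM1. In bulk tumours, fewer cells in G2 and mitosis and less RNA per cell cannot be told apart.

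The transfected gene checked the labels. INSR had a mean log2 signal of 10.99 ± 0.33 (SD, n = 3) with IR-A against 8.04 ± 0.43 (SD, n = 3) with the empty vector, and the groups did not overlap (adjusted p = 0.0769 in limma). Control tumour 2 stood apart from its group over all probe sets, with a mean correlation of 0.982 with the other controls against 0.987 with the IR-A tumours. The tumours carried liver transcripts: ALB, AFP and TF lay above 12 on the log2 scale in every tumour. Hepatocyte markers had more signal in IR-A tumours in 8 of 10 genes, of which 4 reached an unadjusted p under 0.05 (7.1% of all probe sets did so in this direction), and their summed linear signal ran from 43758 to 50454 in control and from 51876 to 55718 in IR-A tumours. Markers of host cells were also examined, although the probes are human and read mouse RNA only where it binds. Of the fibroblast markers 3 of 10, of the macrophage markers 2 of 8 and of the endothelial markers 1 of 8 were higher at an unadjusted p under 0.05, and none was lower. Summed linear signals were 267 to 460 in control and 338 to 375 in IR-A tumours for fibroblast markers, 1096 to 1763 and 1877 to 2487 for macrophage markers, and 115 to 131 and 132 to 150 for endothelial markers. CD68 made up 89.8% to 94.3% of the macrophage sum, PDGFRA up to 50.5% of the fibroblast sum in a control tumour, and PECAM1 up to 50.5% of the endothelial sum in an IR-A tumour. Without these genes the fibroblast sums were 223 to 241 in control and 290 to 321 in IR-A tumours. The macrophage sums were then 101 to 127 and 184 to 244, and the endothelial sums 81 to 82 and 74 to 81. PDGFRA, taken out of the fibroblast sum, was lower in mean with IR-A, at -0.87 (SE 0.57). It read 7.86, 6.31 and 5.43 in control and 5.77, 5.40 and 5.83 in IR-A tumours. With PDGFRA kept in, the fibroblast sums of the groups overlapped. Of the 10 fibroblast markers, 7 had a difference above 0 and 3 below. TYROBP was the brightest macrophage marker left in every tumour. It read 5.42, 5.96 and 4.88 in control and 7.47, 7.25 and 6.89 in IR-A tumours. Median differences over each list were 0.11 for fibroblast, -0.0015 for macrophage and -0.041 for endothelial markers. The matrix genes LUM and COL1A2 differed by 1.26 (SE 0.15) and 0.83 (SE 0.20), the myeloid adaptor TYROBP by 1.78 (SE 0.29), CD68 by 0.62 (SE 0.21) and PECAM1 by 0.51 (SE 0.20), with separate groups in each. ERG, an endothelial transcription factor, differed by -0.21 (SE 0.12). The fibroblast marker DCN, at 2.56 to 2.58 in all tumours, and the leukocyte marker PTPRC, at 2.84 to 2.99, were picked out after their values were seen. The part of these markers in the differences of mitotic genes was not tested.

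All 60 mitotic genes had a lower mean signal in IR-A than in control tumours, as had 56% of all probe sets. The median difference, IR-A minus control, was -0.55 on the log2 scale, or 68.3% of the control level, against a median of -0.026 over all 24726 probe sets. The differences ran from -1.25 for HMMR, a spindle protein that also binds hyaluronan, to -0.091 for SPC24, a kinetochore subunit. In 27 of the 60 genes the signal was at least 1.5-fold lower, which 3.03% of all probe sets were. All 60 members were brighter in control tumours than the median probe set, with a median level of 8.01 against 4.72. The shares of all probe sets given here include dim ones, whose differences RMA compresses, and were not matched for level. No member passed limma's test after adjustment over all probe sets (0 of 60, and 0% of all probe sets). At an unadjusted p under 0.05, 45 of 60 members were lower and 0 were higher, where 7.03% of all probe sets were lower. The groups did not overlap in 41 of 60 members, with every IR-A tumour below every control tumour, and 9.45% of all probe sets showed this. The smallest adjusted p among the members was 0.131 in limma, for KIF20B.

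**Figure D1:**
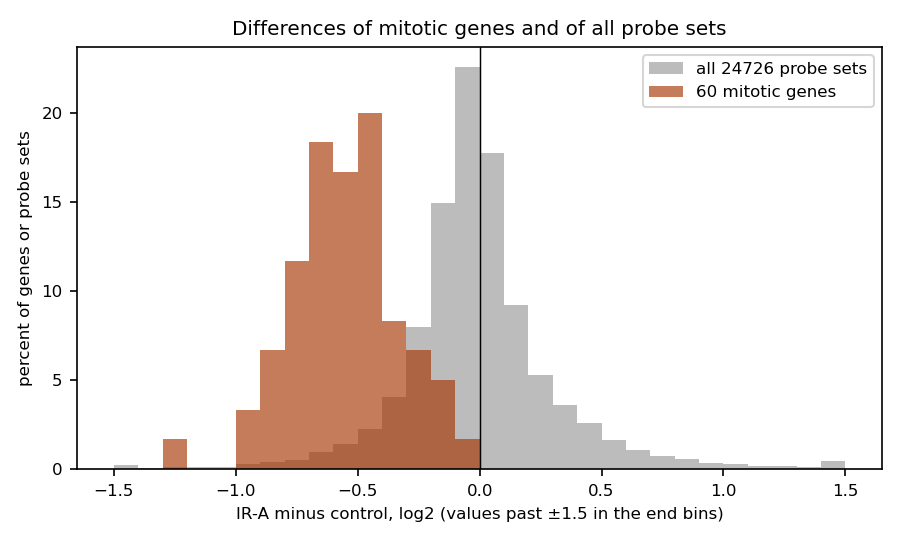
Distribution of the difference IR-A minus control (log2, horizontal axis) as percent of genes or probe sets (vertical axis) for the 60 mitotic genes and for all 24726 probe sets. All mitotic genes lie below 0 with a median of -0.55, while the median of all probe sets is -0.026.

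For the mitotic genes, the control tumours lay close together and the IR-A tumours were spread out. This did not hold over all probe sets. There the mean correlation with the own group was 0.990 to 0.991 for IR-A and 0.982 to 0.985 for control tumours. Measured against the control mean, the median member lay at 0.039, 0.10 and -0.12 in control tumours 1, 2 and 3, and at -0.58, -0.82 and -0.31 in IR-A tumours 1, 2 and 3. IR-A tumour 2 had the lowest signal of its group in 48 of 60 members, and IR-A tumour 3 had the highest in 49 of 60. Over all probe sets these tumours took that place in 33.7% and 32.4%. IR-A tumour 2 lay below every control tumour in 59 of 60 members, IR-A tumour 1 in 55 and IR-A tumour 3 in 43. In 14 of the 19 members with overlap, IR-A tumour 3 alone reached into the control range. The SD within IR-A tumours exceeded that within controls in 48 of 60 members, with medians of 0.25 and 0.17. Among the controls, tumour 3 was lowest in 41 members and tumour 2 highest in 31, so control tumour 2 was not the control nearest to the IR-A tumours for these genes.

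**Figure D2:**
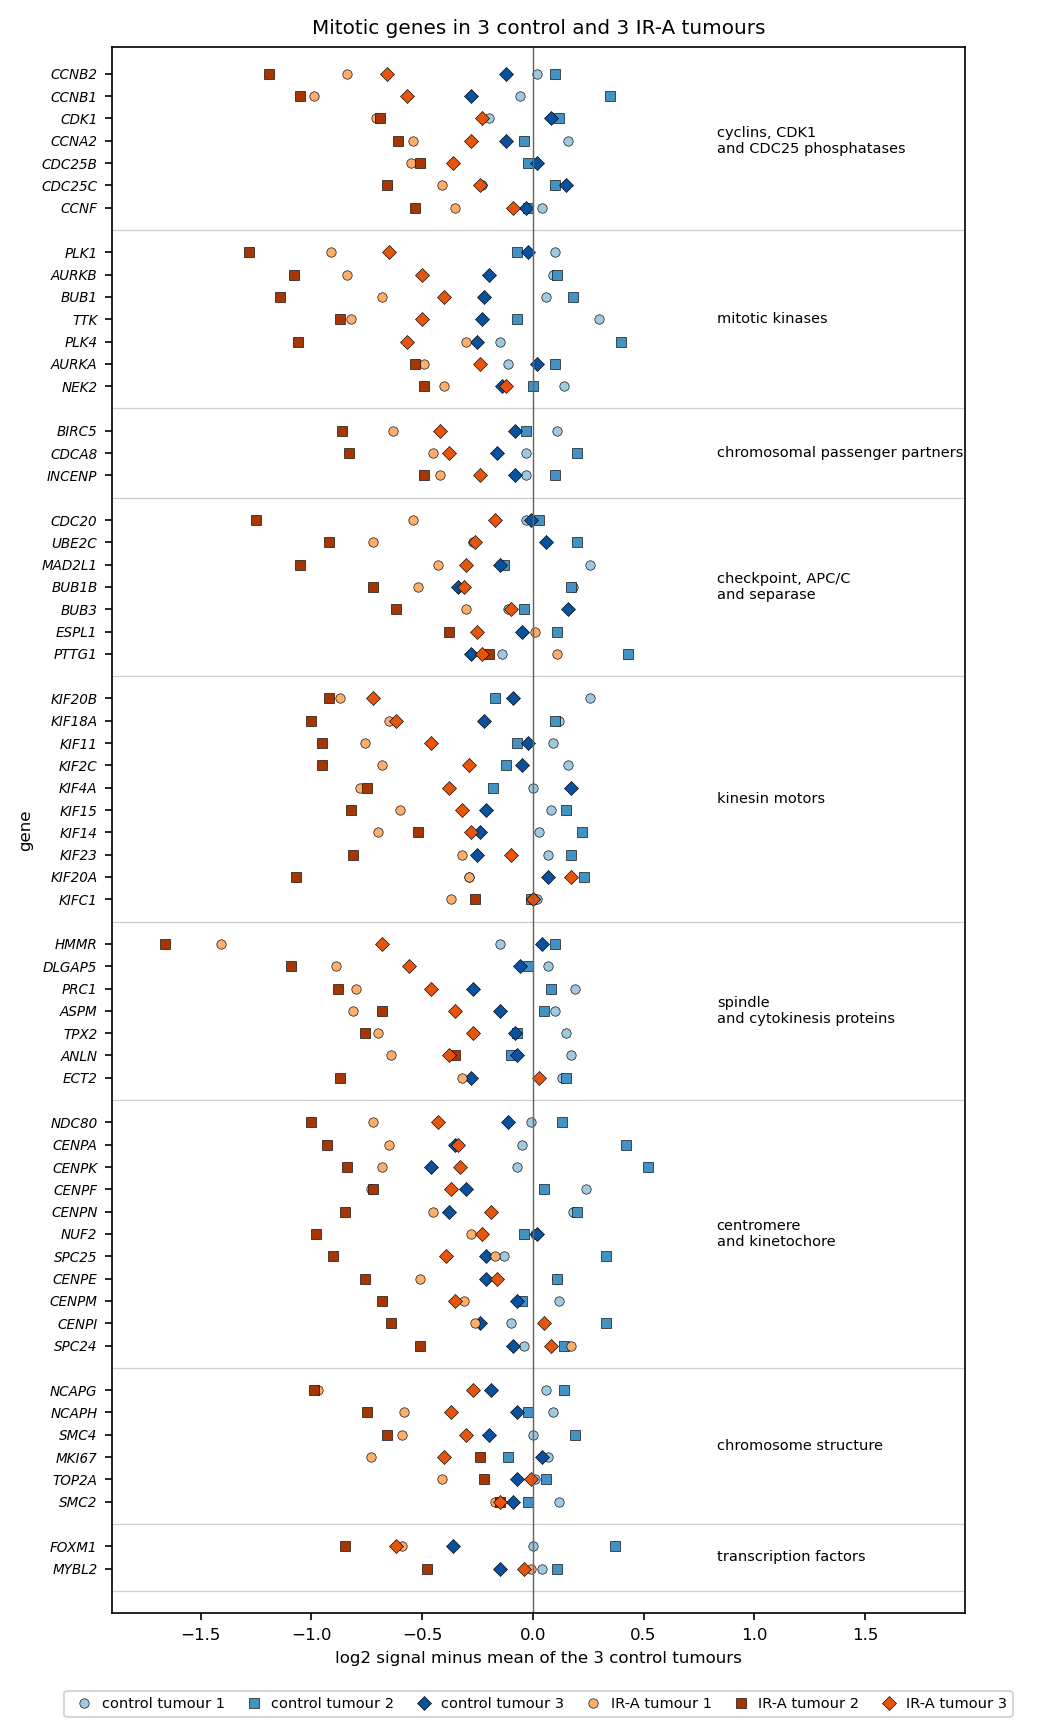
Log2 signal of each of the 60 mitotic genes in each tumour minus the mean of the 3 control tumours (horizontal axis), ordered by role and, within a role, by the difference between groups. Blue symbols are control and orange or brown symbols IR-A tumours, and the squares of IR-A tumour 2 lie furthest to the left in 48 of 60 genes within the IR-A group.

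Left out, control tumour 2 changed the count of members lower at an unadjusted p under 0.05 from 45 to 34, where the share of all probe sets was 10.7%, and the median from -0.55 to -0.49. Although 308 probe sets (1.25%) then passed adjustment in limma, none of them was a mitotic member. The lowest adjusted p among members was then 0.0541, again for KIF20B, and 7 members lay under 0.1.

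Promoter sequence was not used to choose the genes, but genes of mitosis are known as a class controlled by DREAM and MuvB. The motif shares below therefore describe the class that was chosen and say nothing about IR-A. Windows from 250 bases before to 50 after the transcript start in RefSeq (GRCh38.p14, the window listed at the top for each gene) were matched by symbol for 52 members and searched on both strands for CCAAT (or its complement ATTGG), the box bound by NF-Y, and for TTTGAA (or TTCAAA), a core of the cell cycle genes homology region (CHR) to which MuvB binds. Of the 52 windows, 37 (71.2%) held CCAAT, 36 (69.2%) held TTTGAA and 27 (51.9%) held both. Of 27305 windows of all genes in the table, 35.7%, 15.4% and 6.08% did. DNA replication genes, 36 genes with a median difference of -0.49, had 31 windows, of which 54.8%, 3.23% and 3.23% did. For 17 windows of APC/C genes the shares were 35.3%, 17.6% and 0%, and for 14 of interphase kinesins 21.4%, 7.14% and 7.14%. At least 2 copies of CCAAT stood in 44.2% of member windows, 32.3% of those of DNA replication genes and 11.3% of all. In member windows, 66 of 79 copies of CCAAT lay between 150 bases before the start and the start itself. Most of each window lies upstream, and positions were not counted in windows of other genes, so this place may not be particular to the members.

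**Figure D3:**
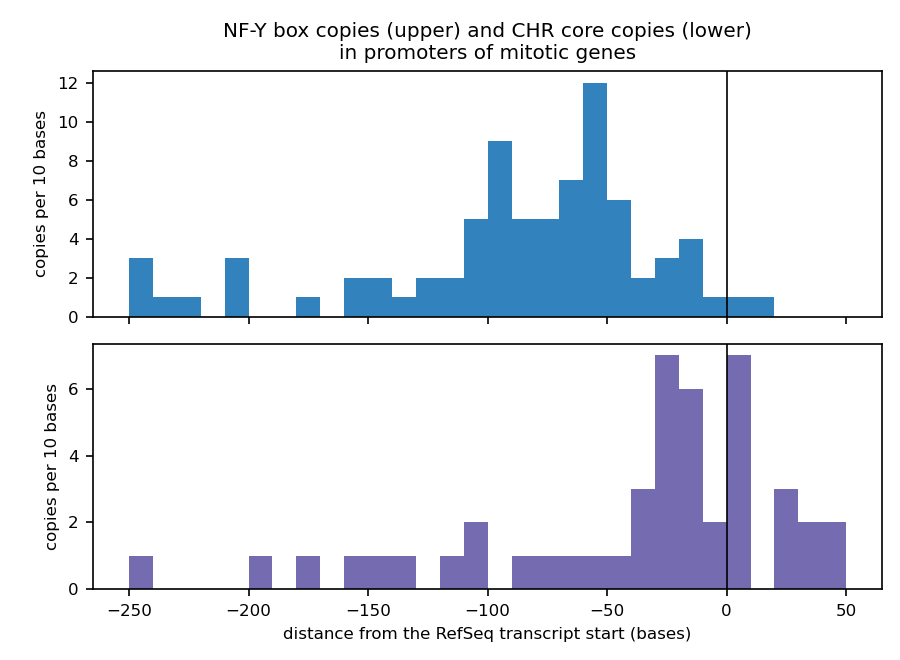
Number of copies per 10 bases (vertical axes) of the NF-Y box and of the CHR core in the promoter windows of 52 mitotic genes, by distance from the RefSeq transcript start (horizontal axis, bases). Of 79 NF-Y box copies, 66 lie within 150 bases upstream of the start, with a median position of -73.

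The windows upstream of the start are printed for the 4 members of smallest p, for HMMR, whose difference was the largest, and for SPC24 and PTTG1, whose differences were the smallest. They are given 5′ to 3′ on the gene's strand, and capitals mark CCAAT and TTTGAA on either strand.
KIF20B (chr10:89701340-89701589, plus strand): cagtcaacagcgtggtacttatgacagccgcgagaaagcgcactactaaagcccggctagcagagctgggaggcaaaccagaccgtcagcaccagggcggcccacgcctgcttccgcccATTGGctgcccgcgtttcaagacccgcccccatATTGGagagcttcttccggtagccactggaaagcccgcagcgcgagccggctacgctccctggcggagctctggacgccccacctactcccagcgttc
CCNB2 (chr15:59104896-59105145, plus strand): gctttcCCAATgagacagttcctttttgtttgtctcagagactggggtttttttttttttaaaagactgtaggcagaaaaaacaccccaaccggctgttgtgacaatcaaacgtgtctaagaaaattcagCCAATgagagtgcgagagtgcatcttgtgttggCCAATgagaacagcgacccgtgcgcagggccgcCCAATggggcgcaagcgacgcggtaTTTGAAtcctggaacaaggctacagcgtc
DLGAP5 (chr14:55191586-55191835, minus strand): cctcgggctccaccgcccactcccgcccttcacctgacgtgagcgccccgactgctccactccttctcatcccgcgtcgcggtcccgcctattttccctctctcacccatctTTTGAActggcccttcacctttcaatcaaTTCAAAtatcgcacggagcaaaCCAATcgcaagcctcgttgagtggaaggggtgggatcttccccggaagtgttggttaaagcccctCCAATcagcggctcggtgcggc
PLK1 (chr16:23678639-23678888, plus strand): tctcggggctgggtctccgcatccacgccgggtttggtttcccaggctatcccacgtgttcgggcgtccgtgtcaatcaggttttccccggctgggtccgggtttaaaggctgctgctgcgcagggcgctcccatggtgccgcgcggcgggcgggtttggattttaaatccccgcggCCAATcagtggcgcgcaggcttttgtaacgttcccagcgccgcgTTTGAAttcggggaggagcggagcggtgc
HMMR (chr5:163460382-163460631, plus strand): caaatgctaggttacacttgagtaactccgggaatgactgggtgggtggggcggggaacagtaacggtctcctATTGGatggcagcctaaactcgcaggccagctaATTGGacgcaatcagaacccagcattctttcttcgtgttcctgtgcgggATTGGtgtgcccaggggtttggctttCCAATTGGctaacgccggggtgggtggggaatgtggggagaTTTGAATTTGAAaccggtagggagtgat
SPC24 (chr19:11155783-11156032, minus strand): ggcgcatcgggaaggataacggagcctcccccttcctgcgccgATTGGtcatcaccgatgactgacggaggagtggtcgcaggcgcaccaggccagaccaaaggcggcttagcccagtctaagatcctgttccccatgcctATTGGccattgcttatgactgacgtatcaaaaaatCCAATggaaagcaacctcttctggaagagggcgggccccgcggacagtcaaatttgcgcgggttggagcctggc
PTTG1 (chr5:160421605-160421854, plus strand): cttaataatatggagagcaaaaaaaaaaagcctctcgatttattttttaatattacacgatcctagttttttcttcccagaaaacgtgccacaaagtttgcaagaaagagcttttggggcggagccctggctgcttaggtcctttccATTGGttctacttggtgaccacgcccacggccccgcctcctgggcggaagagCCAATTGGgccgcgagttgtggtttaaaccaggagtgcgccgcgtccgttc
The printed stretch of CCNB2 held 4 copies of CCAAT and 1 of TTTGAA, that of PLK1 1 of each, that of DLGAP5 2 of each, and that of HMMR 5 and 2. In HMMR and PTTG1, CCAATTGG is a copy on each strand at the same place. KIF20B had 2 copies of CCAAT and no TTTGAA in the printed stretch. Its searched window held 2 copies of TTTGAA past the start, so it counts among members with TTTGAA. SPC24 and PTTG1 had 3 copies of CCAAT each and no TTTGAA in the whole window. Every printed stretch thus held the NF-Y box. The median difference was -0.57 in the 36 members with TTTGAA and -0.48 in the 16 without, and -0.55, -0.57 and -0.49 in those with at least 2, 1 and no copies of CCAAT. A match is a description of the sequence and not a binding site, and these medians were not compared by a test.

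The cyclins, CDK1 and the CDC25 phosphatases, which start mitosis, were all lower at an unadjusted p under 0.05 (7 of 7), with a median of -0.48. Of all probe sets, 7.03% were lower at that p. CCNB2, a B-type cyclin, read 8.80, 8.88 and 8.66 in control tumours 1 to 3 and 7.94, 7.59 and 8.12 in IR-A tumours 1 to 3. Every IR-A tumour was thus below every control, and the difference was -0.90 (SE 0.15, 95% interval -1.26 to -0.53, adjusted p = 0.140 in limma). CCNB1, the B-type cyclin that is essential for division, differed by -0.88 (SE 0.20), and CDK1, its kinase, by -0.54 (SE 0.16). CCNA2, the cyclin of S phase and G2, differed by -0.48, CDC25B, which activates CDK1 at centrosomes, by -0.48, and CDC25C, which does so at mitotic entry, by -0.44. CDC25B had the tightest groups, with SDs of 0.021 in control and 0.10 in IR-A tumours. Smallest was the difference of CCNF, a substrate receptor of an SCF ubiquitin ligase, which read 7.23, 7.17 and 7.16 against 6.84, 6.66 and 7.10 (-0.32, SE 0.13). IR-A tumour 3 lay just under the controls there.

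The mitotic kinases were lower at an unadjusted p under 0.05 in 7 of 7 genes (7.03% of all probe sets were), with a median of -0.73. PLK1, which acts from centrosome maturation to cytokinesis, read 9.69, 9.52 and 9.57 in control and 8.68, 8.31 and 8.94 in IR-A tumours. No values overlapped, and the difference of -0.95 (SE 0.17, 95% interval -1.35 to -0.55, adjusted p = 0.140 in limma) left 51.8% of the control signal. AURKB, the kinase that corrects faulty attachments of chromosomes, differed by -0.81 (SE 0.17). AURKA, its relative at spindle poles, differed by -0.43 (SE 0.12). The checkpoint kinases BUB1 and TTK differed by -0.74 (SE 0.21) and -0.73 (SE 0.17). PLK4, which starts centriole duplication, differed by -0.65 (SE 0.25). NEK2, which splits the centrosomes, had the smallest difference, with 7.33, 7.19 and 7.05 in control against 6.79, 6.70 and 7.07 in IR-A tumours (-0.34, SE 0.13). Its groups overlapped by IR-A tumour 3.

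AURKB works in the chromosomal passenger complex, and its partners were lower in 3 of 3 genes at an unadjusted p under 0.05 (7.03% of all probe sets were). BIRC5 (survivin), which brings the complex to centromeres, read 8.26, 8.12 and 8.07 in control and 7.52, 7.29 and 7.73 in IR-A tumours, a difference of -0.63 (SE 0.13). CDCA8 (borealin) differed by -0.55 (SE 0.16). INCENP, the scaffold that activates AURKB, read 6.72, 6.85 and 6.67 against 6.33, 6.26 and 6.51 (-0.38, SE 0.11). In all 4 genes of the complex every IR-A tumour lay below every control, as in 9.45% of all probe sets.

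Among checkpoint, APC/C and separase genes 4 of 7 were lower at an unadjusted p under 0.05 (7.03% of all probe sets were). Every IR-A tumour lay below every control in 2 of 7 (9.45% of all probe sets). CDC20, the activator of the APC/C that the checkpoint holds back, had the largest difference in the group. It read 9.41, 9.47 and 9.43 in control and 8.90, 8.19 and 9.27 in IR-A tumours (-0.65, SE 0.26). Controls lay within an SD of 0.03, while the IR-A tumours were far apart, with an SD of 0.55. UBE2C, the ubiquitin-conjugating enzyme of the APC/C, differed by -0.63 (SE 0.20), and the checkpoint protein MAD2L1 by -0.59 (SE 0.22). BUB1B (BUBR1) differed by -0.52 (SE 0.18), and BUB3, its partner, by -0.35 (SE 0.16, unadjusted p = 0.0653 in limma). ESPL1, the separase that cuts cohesin, differed by -0.21 (SE 0.13, unadjusted p = 0.138 in limma). PTTG1, the securin that restrains it, read 5.19, 5.76 and 5.05 in control and 5.44, 5.13 and 5.10 in IR-A tumours (-0.11, SE 0.21). Its groups overlapped throughout, the 95% interval ran from -0.60 to 0.38, and without control tumour 2 the difference was 0.10. PTTG1 has near-identical copies, so its signal may be shared. The copy PTTG2 had its own probe set, which differed by -0.26 (SE 0.10).

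Of the kinesin motors 7 of 10 were lower at an unadjusted p under 0.05 (7.03% of all probe sets were), with a median of -0.61. KIF20B, a motor of the midzone and midbody, had the smallest p of all members. It read 7.88, 7.45 and 7.53 in control and 6.75, 6.70 and 6.90 in IR-A tumours (-0.84, SE 0.14, 95% interval -1.17 to -0.51, adjusted p = 0.131 in limma). The lowest control lay well above the highest IR-A tumour. KIF18A, which damps chromosome movements at the plate, differed by -0.76 (SE 0.15), and KIF11 (Eg5), which pushes spindle poles apart, by -0.72 (SE 0.14). KIF15, which can stand in for KIF11, differed by -0.59 (SE 0.16), and KIF2C (MCAK), which takes microtubules apart at centromeres, by -0.64 (SE 0.18). KIF4A, a chromokinesin, differed by -0.63 (SE 0.15). It has a near-identical copy, KIF4B, whose probe set differed by -0.35 (SE 0.22), so part of the signal may be shared. KIF14, a motor of cytokinesis, differed by -0.50 (SE 0.16).

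The 3 motors that missed that p were KIF23, KIF20A and KIFC1. KIF23, a subunit of centralspindlin, differed by -0.41 (SE 0.21). KIF20A (MKLP2), which carries the passenger complex to the midzone, differed by -0.40 (SE 0.32). Its IR-A tumours read 7.31, 6.53 and 7.77, and only IR-A tumour 2 lay far below the controls. KIFC1, which runs towards minus ends and gathers spindle poles, read 5.21, 5.18 and 5.19 against 4.82, 4.93 and 5.19 (-0.21, SE 0.12). There IR-A tumour 3 equalled the controls. Kinesins and light chains of interphase transport, 20 genes, were examined beside the mitotic motors. Of them 2 were lower and 2 higher at an unadjusted p under 0.05, with a median of 0.02. These counts are near the shares of all probe sets, 7.03% lower and 7.1% higher. The light chain KLC2 differed by -1.02 (SE 0.13) and the light chain KLC4 by 1.17 (SE 0.26).

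Spindle and cytokinesis proteins were lower in 6 of 7 genes at an unadjusted p under 0.05 (7.03% of all probe sets were). HMMR read 7.09, 7.34 and 7.28 in control and 5.83, 5.58 and 6.56 with IR-A. The groups were separate, and the difference of -1.25 (SE 0.25, 95% interval -1.84 to -0.66, adjusted p = 0.147 in limma) left 42.1% of the control signal. DLGAP5 (HURP), which stabilises the fibres at kinetochores, read 8.29, 8.20 and 8.16 against 7.33, 7.13 and 7.66 (-0.84, SE 0.15, adjusted p = 0.140 in limma). Its controls lay within an SD of 0.066. PRC1, the crosslinker of the midzone, differed by -0.71 (SE 0.17), ASPM, a protein of spindle poles, by -0.62 (SE 0.15), and TPX2, which activates AURKA, by -0.58 (SE 0.16). ANLN (anillin), a scaffold of the contractile ring, differed by -0.46 (SE 0.13). ECT2, which switches on RhoA at the division plane, read 8.85, 8.87 and 8.44 against 8.40, 7.85 and 8.75 (-0.39, SE 0.24, unadjusted p = 0.160 in limma). IR-A tumour 3 lay among its controls.

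Centromere and kinetochore genes were lower in 6 of 11 at an unadjusted p under 0.05 (7.03% of all probe sets were). Every IR-A tumour lay below every control in 4 of 11 (9.45% of all probe sets). The NDC80 complex, which grips microtubules, had unequal subunits. NDC80 read 8.49, 8.63 and 8.39 in control and 7.78, 7.50 and 8.07 in IR-A tumours (-0.72, SE 0.16). NUF2, its partner, differed by -0.49 (SE 0.20), and SPC25, of the inner end, by -0.48 (SE 0.23, unadjusted p = 0.0737 in limma). SPC24, which pairs with SPC25, read 6.69, 6.87 and 6.64 against 6.90, 6.22 and 6.81 (-0.091, SE 0.19). Only IR-A tumour 2 was below the controls for SPC24, and without that tumour the difference was 0.12. The difference between subunits was not tested.

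CENPA, the histone variant that marks centromeres, differed by -0.64 (SE 0.23). CENPF, a large protein of the outer kinetochore, differed by -0.60 (SE 0.17) and CENPE, a kinesin that brings chromosomes to the plate, by -0.48 (SE 0.18). In the constitutive network that sits on CENPA chromatin, CENPM differed by -0.45 (SE 0.13), CENPN by -0.50 (SE 0.22), CENPK by -0.61 (SE 0.26) and CENPI by -0.28 (SE 0.22). Of these 4, CENPM alone reached an unadjusted p under 0.05 and had separate groups.

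Of the genes of chromosome structure 4 of 6 were lower at an unadjusted p under 0.05 (7.03% of all probe sets were). NCAPG, a subunit of condensin I, read 10.27, 10.35 and 10.02 in control and 9.24, 9.22 and 9.94 in IR-A tumours (-0.75, SE 0.21). IR-A tumours 1 and 2 lay far below the controls, and IR-A tumour 3 just under them. NCAPH, which bridges the complex, differed by -0.56 (SE 0.12), and SMC4, of its core, by -0.52 (SE 0.15). SMC2, which pairs with SMC4, read 7.73, 7.59 and 7.52 against 7.44, 7.46 and 7.46 (-0.16, SE 0.09). The groups of SMC2 did not overlap although the difference was small. MKI67, the proliferation marker that coats mitotic chromosomes, differed by -0.45 (SE 0.14), and TOP2A, the topoisomerase that untangles them, by -0.21 (SE 0.12, unadjusted p = 0.127 in limma). For both, IR-A tumour 1 rather than tumour 2 was the lowest.

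The transcription factors had differences of unlike size, which were not compared by a test. FOXM1, which drives genes of G2 and mitosis, read 8.64, 9.01 and 8.28 in control and 8.05, 7.79 and 8.02 in IR-A tumours (-0.69, SE 0.19), with separate groups. MYBL2 (B-MYB), which joins MuvB, read 8.91, 8.98 and 8.72 against 8.86, 8.39 and 8.83 (-0.18, SE 0.15, 95% interval -0.55 to 0.19). Only IR-A tumour 2 lay below its controls. Other DREAM, MuvB and E2F genes were lower at an unadjusted p under 0.05 in 4 of 19 (21.1%, where 7.03% of all probe sets were). None was higher, and the median was -0.12. E2F2, an activator of S phase genes, differed by -0.53 (SE 0.10) and RBL1 (p107), a pocket protein, by -0.51 (SE 0.10).

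Other genes of mitosis were examined in lists by role beside the members. Spindle and cytokinesis genes outside the 60 were lower in 9 of 20 at an unadjusted p under 0.05 (median -0.42), where 7.03% of all probe sets were, among them DEPDC1 (-0.76, SE 0.18) and TACC3, which stabilises spindle microtubules (-0.66, SE 0.17). Of other checkpoint and entry regulators 8 of 18 were lower and 1 higher (median -0.40). KNTC1 (ROD), which brings checkpoint proteins to kinetochores, differed by -0.65 (SE 0.15) and SGO1, the protector of cohesin, by -0.56 (SE 0.13). Of other kinetochore genes 7 of 23 were lower (median -0.23), with the inner kinetochore subunits ITGB3BP (CENP-R) at -1.02 (SE 0.15) and CENPH at -0.66 (SE 0.14). Of other condensin and cohesin genes 3 of 13 were lower (median -0.09), with the condensin II subunit NCAPD3 at -0.74 (SE 0.18) and the condensin I subunit NCAPD2 at -0.33 (SE 0.13).

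Subunits and regulators of the APC/C, most of them present throughout the cycle, were lower in 1 of 17 (5.88%, where 7.03% of all probe sets were) and higher in 0, with a median of 0.0014. The smallest p values there belonged to ANAPC11, its catalytic RING subunit (-0.22, SE 0.09), and ANAPC1, its scaffold (-0.44, SE 0.19). The S phase was examined through 36 DNA replication genes, of which 19 were lower and 0 higher at an unadjusted p under 0.05 (median -0.49). PRIM1, a primase subunit, differed by -0.79 (SE 0.12) and the licensing factor CDT1 by -0.90 (SE 0.19). Their adjusted p values were 0.126 and 0.155 in limma with all tumours, and 0.0452 and 0.0261 with control tumour 2 left out. In that setting 2 of the 36 genes passed adjustment, where 1.25% of all probe sets did. This was not particular to replication genes. Among the interphase kinesins and light chains 1 of 20 passed there, KLC2 (adjusted p = 0.0371 in limma). D-type cyclins, their kinases and inhibitors were lower in 1 of 11 (9.09%, near the 7.03% of all probe sets), with a median of -0.15, and with CDKN2A at -0.36 (SE 0.14) and CCND1 at -0.34 (SE 0.14). By other measures this list lay further from all probe sets. Every IR-A tumour was below every control in 3 of 11 genes (27.3%, against 9.45%), and 10 of 11 differences were below 0 (against 56%). No test compared the lists with each other.

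**Figure D4:**
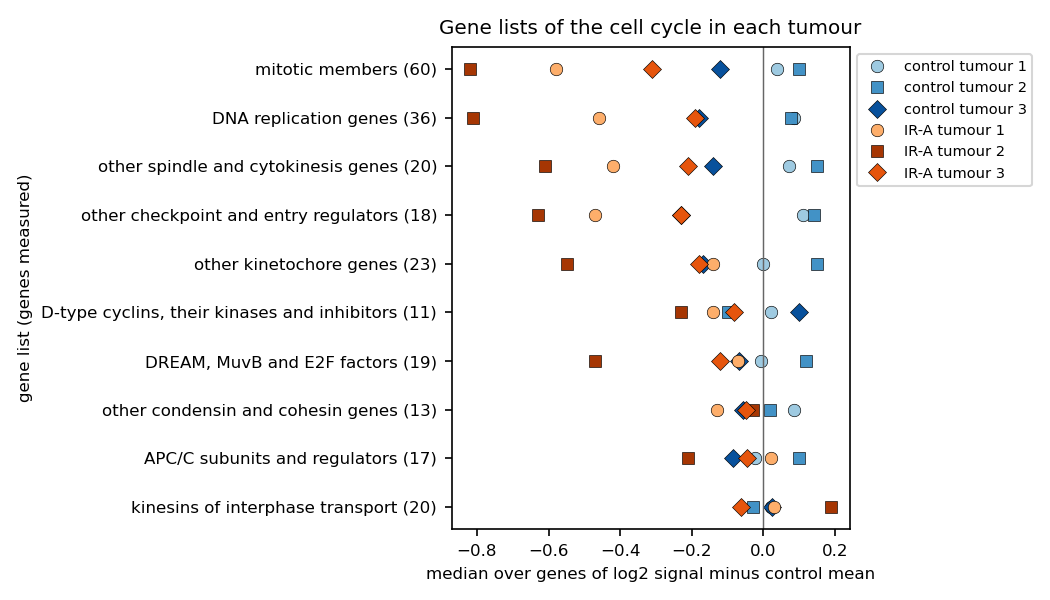
Median over the genes of each list of the log2 signal minus the control mean (horizontal axis) in each tumour, for the mitotic genes and 9 other lists of the cell cycle or of kinesins (numbers of genes in brackets). The mitotic genes lie at -0.58, -0.82 and -0.31 in IR-A tumours 1, 2 and 3, and interphase kinesins at 0.03, 0.19 and -0.064.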

How the data were processed

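Total RNA from 6 tumours was hybridised to Affymetrix arrays. The authors deposited a log2 signal for each probe set and tumour. RMA and Partek are named, with no version or role, per the submitters' processing notes. The log2 scale was read from the values. How probe sets were defined, which build they follow and how the authors tested them is not given in the sources used here. RMA compresses differences of dim probe sets. GEO's probe annotation gave 1 symbol to 23934 of 24726 probe sets and none to 792. Of several probe sets for a symbol, the one with the highest mean was kept (23931 genes). IR-A and control tumours were compared with limma 3.58.1 in R 4.3.3 (lmFit, eBayes, no filter), with p adjusted by Benjamini-Hochberg over the whole table and a threshold of 0.05. Differences are IR-A minus control, with moderated SE and 95% interval. Linear sums are of 2 raised to the log2 signal.

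Per-tumour values are given for the 4 members of smallest p and for the largest and smallest difference of each role, and differences for the others. KIF20A's were added after they were seen. Of other lists, the 2 genes of smallest p are named. Members and lists were chosen with earlier results of these data known. Alternatives were quantile normalization, median centring, leaving out the dimmest 25% or 50%, leaving out each tumour, an intensity trend, robust moderation, array weights, and a block for replicate numbers. The fit was tested on simulated data. Figures used matplotlib 3.10.9 in Python 3.11.15.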

Additional observations from a re-analysis of the deposited data

How the results depend on the processing

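The median difference of the 60 members, -0.55, ran from -0.67 to -0.46 over left-out tumours, and the count lower at an unadjusted p under 0.05, 45, ran from 34 to 51. Neither moved by more than the spread between tumours or 1.5 times under any of 14 alternatives. No member passed adjustment in any of them (lowest adjusted p = 0.0541 in limma). Of the members, 58 kept a negative difference throughout, and the exceptions were PTTG1 without control tumour 2 (0.10, and -0.25 at the other end of its range over left-out tumours) and SPC24 without IR-A tumour 2 (0.12, and -0.22 at the other end). The number of all probe sets called, 0 as reported with 3493 at an unadjusted p under 0.05, was 14 and 20 without the dimmest 25% and 50%, 11 with array weights, and 0 to 308 with 1 tumour left out. Same-numbered tumours did not deviate together (correlations -0.29, -0.36 and 0.02, and 0 of 6 tumours correlated best with their own number). Deviations within such small groups cannot decide whether the numbers pair tumours, and the labels do not say what the numbers mean. With the replicate block 39 members were lower at an unadjusted p under 0.05, as were 5.26% of all probe sets. Signal over background was not measured.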
